A study of Rattus norvegicus with 320 samples.

Results

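miR-199a and miR-214 are microRNAs (miRNAs) of mesenchymal, that is connective tissue and muscle-forming, cells. They were followed here through the organs and the life span of the rat. Every miRNA of the count table named miR-199a or miR-214, with either arm of the hairpin, was taken, which gave 4 of 616 miRNAs, namely rno-miR-199a-3p, rno-miR-199a-5p, rno-miR-214-3p and rno-miR-214-5p, where rno stands for the rat and is left off from here on. Small RNA had been sequenced from 11 organs of Fischer 344 rats of both sexes. The animals were 2, 6, 21 or 104 weeks old, with 4 rats for each sex and age. The study took several organs from each rat, so libraries of different organs share animals. The main fits that compare organs treat these libraries as independent. There were 320 libraries in all. Uterus was taken from females and testis from males, and the other 9 organs (heart, lung, spleen, skeletal muscle, kidney, adrenal gland, thymus, liver and brain) from both sexes. All animals shared 1 inbred strain, and the labels name no treatment or genetic change. Each library came from ground organ tissue, so that fewer cells of a type and less RNA per cell cannot be told apart in any result that follows.

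A miRNA is cut from a hairpin precursor and guides an Argonaute protein to messenger RNAs that pair with its seed, the stretch of bases near its 5′ end. Both strands of the hairpin stem, called the 5p and the 3p arm, can be kept. miR-199a and miR-214 are cut from a shared long non-coding transcript, Dnm3os, which is transcribed from the strand opposite to the dynamin gene Dnm3. They are known for their expression in mesenchyme of the embryo, in fibroblasts and in activated stellate cells, and for their rise in fibrotic organs.

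The mature sequences are shown because the miRNAs of the locus are told apart by them. All 4 were found in the RefSeq miRNA table for the GRCr8 assembly, and the capitals mark the seed, bases 2 to 8 from the 5′ end.
miR-199a-5p: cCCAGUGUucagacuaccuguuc
miR-199a-3p: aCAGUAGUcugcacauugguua
miR-214-5p: aGAGUUGUcaugugucu
miR-214-3p: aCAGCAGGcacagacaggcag
In GRCr8 these lie on the plus strand of chromosome 13, miR-199a-5p at chr13:77116255-77116277, miR-199a-3p at chr13:77116294-77116315, miR-214-5p at chr13:77121656-77121672 and miR-214-3p at chr13:77121713-77121733. The start of miR-214-3p lies 5458 bases after that of miR-199a-5p. The 4 seeds differ from each other, and 0 other miRNAs of the count table whose sequence was found in RefSeq carry any of them. The closest mature sequence among those miRNAs was 7 edits away from miR-214-3p and 8 or 10 edits away from the others. The count table held 0 rows named miR-199b, and its sequence was not among those compared. Whether its reads were counted under miR-199a was therefore not tested. The miR-214 hairpin shows how the arms lie, with both mature arms in capitals, and spans chr13:77121645-77121752.
miR-214 hairpin: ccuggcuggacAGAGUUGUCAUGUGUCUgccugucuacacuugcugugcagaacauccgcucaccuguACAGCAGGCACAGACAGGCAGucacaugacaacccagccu

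Totals per library were 315550 to 10571800 counts with a median of 2848160, and levels are given as CPM, the count scaled to a library total of 1000000. Libraries were compared with their labels through organ-specific miRNAs. miR-124-3p of neurons was at 5175 CPM or more in brain and at 156 CPM or less elsewhere. Liver miR-122-5p, heart miR-208a-3p and skeletal muscle miR-206-3p likewise separated their organ from all others. miR-741-3p, from an X-linked cluster of the testis, was at 3730 to 7022 CPM in testis at week 21 but at 17.0 to 288 CPM at week 104. Of the 2 libraries that the study removed, the male week 6 brain library (replicate 3) held 2236 CPM of miR-199a-3p against 185 to 215 CPM in the other 3 of its group. The removed female week 104 spleen library (replicate 4) held 3810.5 CPM against 1851 to 3238 CPM. The results below rest on the other libraries, and values with the removed libraries are given where they change a call.

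miR-199a-3p was a common miRNA of most organs, highest in uterus and lowest in brain at all 4 ages. Its rank by mean CPM among the 616 miRNAs ran from 13 to 196 over organs and ages, that of miR-199a-5p from 32 to 295, and that of miR-214-3p from 56 to 402. In the 4 uterus libraries of week 21, miR-199a-3p was at 8748, 6035, 7135 and 7303 CPM, with a mean of 7305 ± 1114 CPM (SD, n = 4). The 8 brain libraries of that age ranged from 82.9 to 190 CPM with a median of 131 CPM, and the mean of uterus was 54.9-fold that of brain. Between these extremes at week 21 came heart, lung and spleen, with means of 2367, 2499.8 and 2339 CPM. A lower set was formed by testis at 1172, skeletal muscle at 987, kidney at 873, thymus at 865, adrenal gland at 629.6 and liver at 506 CPM. miR-214-3p spanned a wider range, from 579.7 ± 94.9 CPM in uterus to 5.82 ± 1.55 CPM in brain (SD, n = 4 and 8), which is 99.6-fold. miR-199a-5p spanned 64.2-fold. In brain, miR-214-3p rested on 7 to 37 counts per library, so that counting error is a large part of its spread there.

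**Figure D1:**
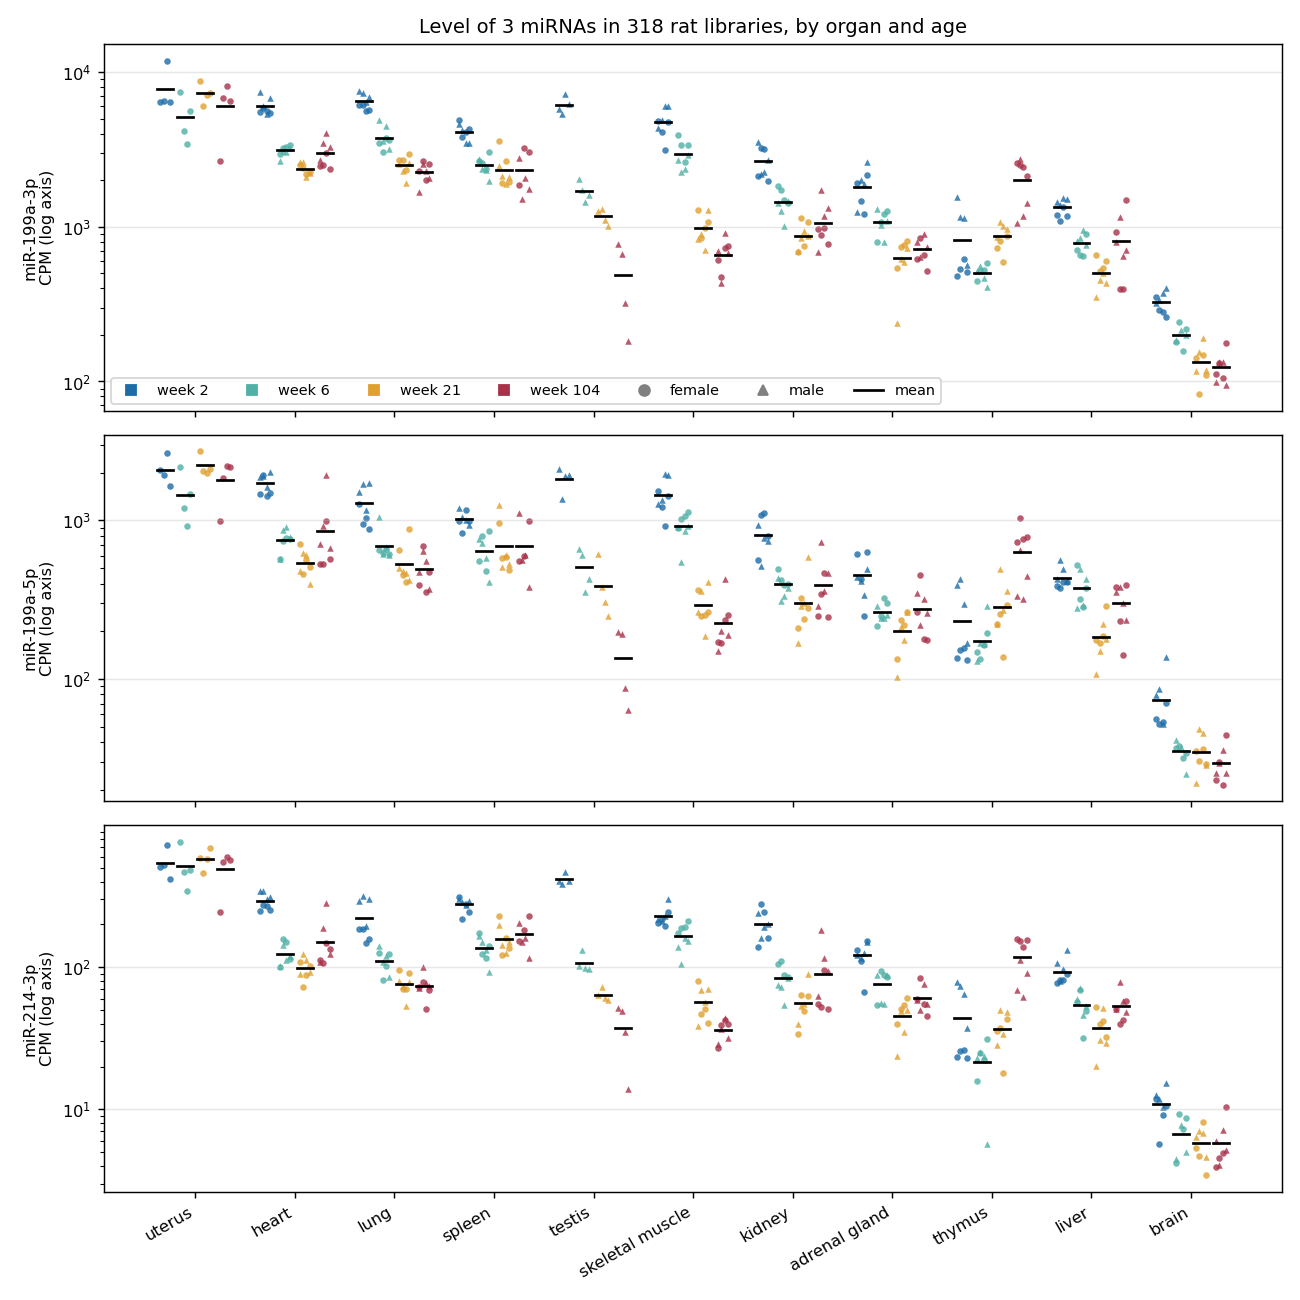
Level in CPM (log axis) of miR-199a-3p, miR-199a-5p and miR-214-3p in the libraries kept, by organ and age, with circles for female and triangles for male rats and bars for group means. Uterus stays high at every age while most organs step down after week 2, testis falls furthest, thymus is highest at week 104, and brain has the lowest means.

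For differences between organs, edgeR's quasi-likelihood test was run on TMM-scaled counts, with p-values adjusted by Benjamini-Hochberg over all 616 miRNAs, and a difference is called at an adjusted p under 0.05. TMM scaling sets libraries by the bulk of miRNAs, which differs from CPM where a few miRNAs take much of a library. The study used no spike-in controls, so both scalings give levels relative to the other miRNAs of a library, not absolute amounts. Falls and rises below are relative in this sense. Of the 55 pairs of organs, miR-199a-3p differed in 48 at week 2, 51 at week 6, 48 at week 21 and 44 at week 104. Over all miRNAs, 65.7%, 64.6%, 61.6% and 56.3% of such tests were called at these ages. miR-199a-5p differed in 39 to 50 pairs and miR-214-3p in 41 to 48. At week 21, neighbours in the order of miR-199a-3p that did not differ beyond their spread were lung and heart (log2 difference -0.13, adjusted p = 0.444), skeletal muscle and kidney (0.14, adjusted p = 0.366), and thymus and adrenal gland (0.06, adjusted p = 0.734). The order by CPM is not that of the fit in each case: testis, ahead of skeletal muscle by CPM, gave a log2 difference of -0.93 after TMM scaling (adjusted p = 8.7e-07).

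Uterus was called higher than each of the 10 other organs, for each of the 3 miRNAs and at each age. Over all miRNAs, uterus was called higher in 29.2%, 29.4%, 32.7% and 25.8% of these tests at weeks 2, 6, 21 and 104. For miR-199a-3p the smallest difference was to lung at week 2, at 0.81 ± 0.16 on the log2 scale (SE, adjusted p = 1.8e-05), and at week 21 the differences ran from 2.33 against heart to 7.64 against brain. Single libraries overlapped at some ages. By CPM, all 4 uterus libraries lay above every library of 7 of 10 organs for miR-199a-3p at week 2, of 8 at week 6, of 10 at week 21 and of 7 at week 104. Such separation was not counted for other miRNAs. At week 2 the overlap was with heart, lung and testis. With libraries scaled by their total count alone, 24 of the 30 week 2 comparisons of uterus stayed called, and all 30 did at each later age. The 4 miRNAs miR-143-3p, miR-143-5p, miR-145-5p and miR-145-3p, which mark smooth muscle, together took 266905 CPM in uterus at week 2 and 481712 CPM at week 21. Their part in the scaling of uterus was not tested.

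Between week 2 and week 21, the 3 miRNAs fell in most organs. In testis the 4 libraries of week 2 held 5811, 5367, 7209 and 6185 CPM of miR-199a-3p, and those of week 21 held 1264, 1297, 1112 and 1015 CPM. The groups lay far apart, with the lowest week 2 library above the highest week 21 library. The fitted change was a fall of 4.30-fold for miR-199a-3p (log2 change -2.11 ± 0.28, SE, adjusted p = 6.0e-06), 3.94-fold for miR-199a-5p and 5.36-fold for miR-214-3p. Of all miRNAs, 29.5% were called lower in testis over these ages. For miR-214-3p the testis libraries went from 407, 386, 471 and 405 CPM to 64.0, 72.4, 60.2 and 58.7 CPM.

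After testis, skeletal muscle had the largest fall of both miR-199a arms and kidney that of miR-214-3p. The 8 week 2 libraries of skeletal muscle ranged from 3129 to 6039 CPM of miR-199a-3p with a median of 4779 CPM, and its 8 week 21 libraries from 704 to 1284 CPM with a median of 942 CPM, without overlap. The log2 changes were -1.40 ± 0.14 for miR-199a-3p, -1.43 ± 0.16 for miR-199a-5p and -1.17 ± 0.15 for miR-214-3p (SE). Kidney gave -1.35, -1.22 and -1.62 for the same miRNAs, with miR-199a-3p going from a median of 2473 CPM to 861 CPM. In lung the median went from 6279.6 to 2576 CPM and in heart from 5750.4 to 2326 CPM, with no overlap in either. Their log2 changes were -1.03 ± 0.08 and -0.63 ± 0.09 (SE). For the same miRNA, adrenal gland changed by -1.04, liver by -0.95 and brain by -0.85. Spleen, at -0.52, had the smallest fall of miR-199a-3p among the 9 organs in which it was called lower. The study's records give low RNA integrity for the week 2 spleen samples, and the part of this in the spleen values was not tested.

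In all, 25 of the 33 tests (3 miRNAs in 11 organs) were called lower at week 21, 3 higher and 5 not called. Over all miRNAs, 25.3% of tests were called lower and 21% higher. For miR-199a-3p 9 organs fell and 0 rose, for miR-199a-5p 8 fell and 2 rose, and for miR-214-3p 8 fell and 1 rose. By CPM alone, week 21 lay below week 2 without overlap in 8, 6 and 7 of the 11 organs for miR-199a-3p, miR-199a-5p and miR-214-3p. How often other miRNAs separate in this way was not counted, so these numbers only describe the 3 miRNAs. Of the 25 falls, 22 stayed called in every alternative that was run, and those lost in at least 1 were both arms of miR-199a in brain and miR-214-3p in spleen. Brain depended on a removed library: with it, the log2 change from week 2 to week 6 turned from -0.42 to 0.63 for miR-199a-3p and from -0.77 to 0.56 for miR-199a-5p, and neither was called with it. Falls were called at week 6 already, when 24 of 33 tests were called lower and 0 higher by edgeR, against 20.6% and 15.4% of all tests. Of these 33 tests, 25 were lower and 0 higher at an unadjusted p under 0.05, and DESeq2 called 26 lower and 0 higher.

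The size of the fall depends on how libraries are scaled, since TMM and total count differ by a median log2 shift of -0.43 for week 2 to week 21 over the 11 organs. This shift was largest in skeletal muscle (-0.83) and smallest in thymus (-0.06). With total-count scaling, heart changed by -1.34 and skeletal muscle by -2.26 for miR-199a-3p, and 27 tests of the 3 miRNAs were called lower and 0 higher. Of the calls over all miRNAs, 54.6% were falls with TMM and 76.1% with total-count scaling. For week 2 to week 6 these shares were 57.2% and 73.6%.

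**Figure D2:**
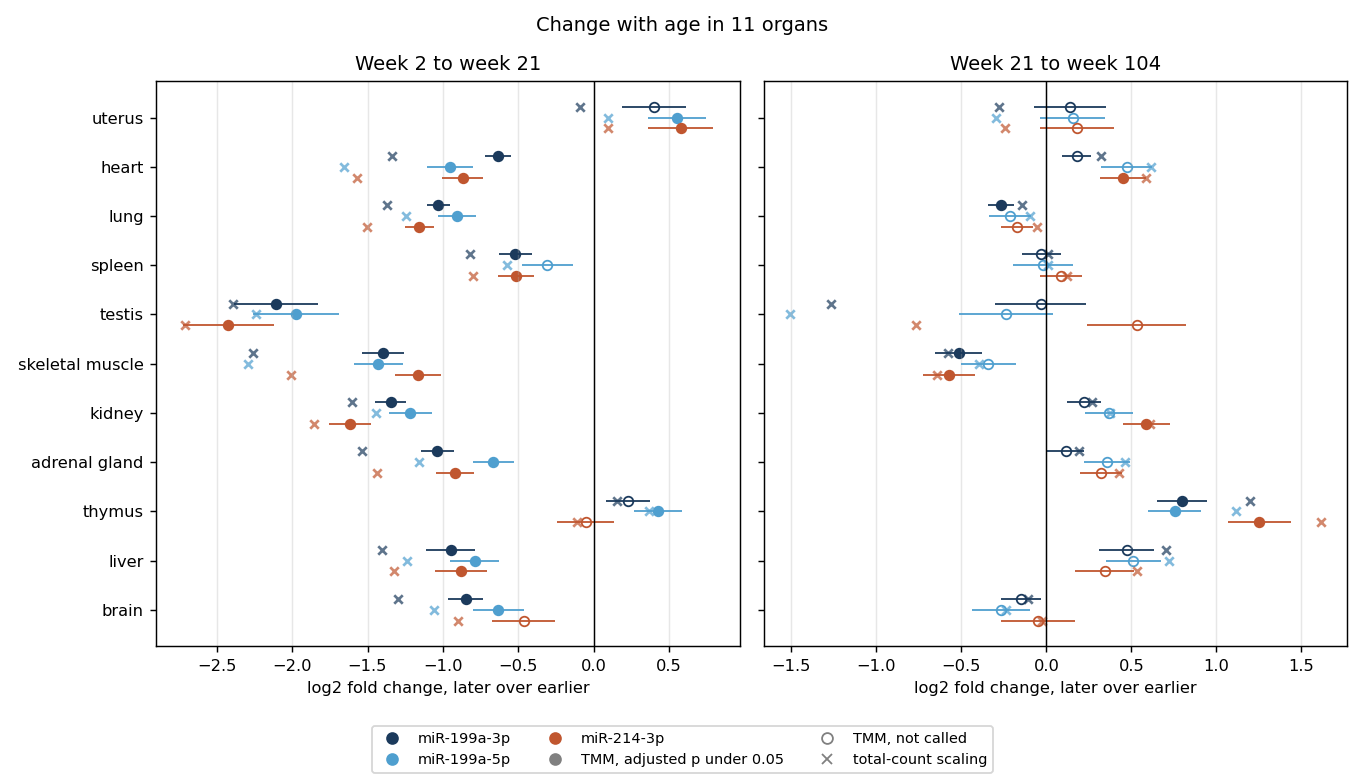
Log2 fold change of the 3 miRNAs between weeks 2 and 21 (left) and weeks 21 and 104 (right) in 11 organs, with circles and SE bars for the TMM fit (filled where the adjusted p is under 0.05) and crosses for total-count scaling. On the left, 9 organs lie below 0 for all 3 miRNAs, uterus lies above 0, and thymus lies above 0 except for miR-214-3p at -0.05; on the right, thymus lies above 0, and testis moves from near 0 to -1.27 for miR-199a-3p with the other scaling.

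Uterus and thymus stood apart from this fall. In uterus the libraries of miR-199a-3p were at 6364, 6487, 11855 and 6455 CPM at week 2 and at the values given above at week 21, with overlap between the ages. Its log2 change of 0.40 ± 0.21 was not called (adjusted p = 0.153), and those of miR-199a-5p (0.55, adjusted p = 0.0276) and miR-214-3p (0.58, adjusted p = 0.0422) were called higher, as were 15.6% of all miRNAs in uterus. With total-count scaling the 3 values were -0.09, 0.10 and 0.09 and none was called, so that no direction can be given for uterus. In thymus the 8 libraries of week 2 ranged from 482 to 1557 CPM of miR-199a-3p, those of week 21 from 591 to 1079 CPM, and the log2 changes were 0.23, 0.42 and -0.05. The 4 male thymus libraries of week 2 were the more scattered, at 570.2 to 1557 CPM against 482 to 616 CPM in the females. Of these changes only that of miR-199a-5p in thymus was called (adjusted p = 0.0401), against 13.3% of all miRNAs called higher in thymus, and it was lost with DESeq2 (adjusted p = 0.0518), with total-count scaling (adjusted p = 0.186) and with the sequencing lane in the fit (adjusted p = 0.0864).

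The difference of each organ's change from the mean change of the other organs was tested in 1 fit of all groups. Uterus lay above the mean of the others by 1.302 ± 0.19, 1.34 ± 0.24 and 1.51 ± 0.22 on the log2 scale for miR-199a-3p, miR-199a-5p and miR-214-3p (SE), with the lowest adjusted p = 1.8e-09. Thymus lay above it by 1.04, 1.12 and 0.76, and testis below it, with differences of -1.26, -1.25 and -1.58. These 9 values were called and stayed called in all 11 alternatives, total-count scaling included. Altogether 18 of 33 such tests were called, 11 lower and 7 higher, against 26.3% of the tests of all miRNAs. With the 2 removed libraries in, 6 tests were called lower. Of the remaining 9, miR-214-3p in kidney (-0.74) and miR-199a-5p in skeletal muscle (-0.55) also held in every alternative.

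From week 21 to week 104 most organs changed little, and thymus rose. Its 8 libraries of week 104 held 1052 to 2752 CPM of miR-199a-3p with a median of 2289 CPM. At week 21 the median was 867 CPM, and only the lowest library of week 104 lay under the highest of week 21, at 1079 CPM. miR-214-3p went from 18.0 to 49.9 CPM up to 62.2 to 159 CPM, with no overlap. The log2 changes were 0.80 ± 0.15 for miR-199a-3p (adjusted p = 2.4e-05), 0.75 ± 0.16 for miR-199a-5p (adjusted p = 0.00018) and 1.25 ± 0.19 for miR-214-3p (adjusted p = 8.9e-07). All 3 held in every alternative. In thymus 19.6% of all miRNAs were called higher over these ages and 21.6% lower. The CPM of miRNAs that mark other cell types changed in thymus over the same ages: the summed level of 4 white blood cell miRNAs went from 40623 (range 31585 to 50360) to 22379 CPM (range 11598 to 29628). That of 4 red blood cell miRNAs went from 2242 (range 1156 to 5303) to 24664 CPM (range 6286 to 93919), and that of 2 endothelial miRNAs from 9098 to 20435 CPM. The part of these in the rise was not tested. The 4 female libraries of week 104 held 2126 to 2581 CPM of miR-199a-3p and the 4 male libraries 1052, 2752, 1174 and 1425 CPM. The male library at 1052 CPM, replicate 1, was one that stood apart in earlier results of these data. It lay below the other 3 males for miR-199a-3p and within their range for the others, and the 3 rises held without it.

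In testis the level fell again by CPM but not after TMM scaling. The libraries of week 104 held 771, 671, 320 and 182 CPM of miR-199a-3p, all under the lowest of week 21. For miR-214-3p they held 52.0, 49.3, 34.9 and 13.8 CPM. With TMM the log2 changes were -0.03, -0.24 and 0.53 for miR-199a-3p, miR-199a-5p and miR-214-3p and none was called (adjusted p = 0.963, 0.515 and 0.140). With total-count scaling they were -1.27, -1.51 and -0.77 and all 3 were called, so that miR-214-3p changed direction with the scaling. The whole testis profile moved between these ages, with miR-741-3p falling as given above and the smooth muscle miRNAs going from 175529 to 39105 CPM, and the scalings differ by a log2 shift of -1.24 there. The part of this in the values was not tested.

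Among all 33 tests of week 21 against week 104, 3 were called lower and 5 higher, against 8.66% and 7.38% over all miRNAs. The falls were miR-199a-3p in lung (log2 change -0.27) and in skeletal muscle (-0.52) and miR-214-3p in skeletal muscle (-0.58), and each was lost in at least 1 alternative. Besides the 3 rises in thymus, miR-214-3p was called higher in heart (0.45) and kidney (0.59), which were also lost in at least 1.

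From week 2 to week 21, the median change over organs lay nearer 0 for the proportions of the 3 miRNAs than for their levels. The median log2 change was 0.14 for miR-199a-5p over miR-199a-3p and 0.01 for miR-214-3p over miR-199a-3p. For the levels of miR-199a-3p, miR-199a-5p and miR-214-3p it was -0.95, -0.79 and -0.88. These medians keep the sign, so that ratio changes in opposite directions partly cancel. The arm ratio changed by -0.33 in heart to 0.39 in adrenal gland. miR-214-3p over miR-199a-3p changed by -0.32 in thymus to 0.42 in brain. In thymus that ratio moved further than the level of either miRNA (0.23 for miR-199a-3p, -0.05 for miR-214-3p). miR-199a-3p exceeded miR-199a-5p in every library kept, by a geometric mean of 3.57-fold, and the 5p arm made up 22.3% of the reads of the pair on average (range 11.2% to 42.6%). By organ this share was lowest in lung, 16.8% ± 2.63 (SD, n = 32), and highest in liver, 27.9% ± 5.20 (SD, n = 32), with overlap of single libraries. miR-199a-3p was 18.3-fold the level of miR-214-3p, with 12.1-fold in uterus and 31.8-fold in lung. As both are mature miRNAs ligated and counted without a length term, these ratios also hold the ligation preference of each sequence and are no molar ratios. Age steps of the ratios in each organ were compared with an exact two-sided permutation test over libraries, 44 tests in all. None of the 22 tests of the arm ratio was called after Benjamini-Hochberg adjustment, with 2 at an unadjusted p under 0.05, and none of the 22 of the miR-214-3p to miR-199a-3p ratio, with 7. The lowest exact permutation p, 0.0036 (adjusted 0.157), was that of miR-214-3p to miR-199a-3p in thymus from week 21 to week 104, where the log2 ratio went from -4.58 ± 0.30 to -4.09 ± 0.26 (SD, n = 8 and 8). With 4 libraries against 4 in testis and uterus, the smallest p the exact permutation test can give is 0.0286. Testis reached it in both age steps of the miR-214-3p to miR-199a-3p ratio, with log2 differences of -0.31 and 0.55. A call after adjustment over 44 tests was hardly possible there. No conclusion is drawn from the missing calls of testis and uterus.

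**Figure D3:**
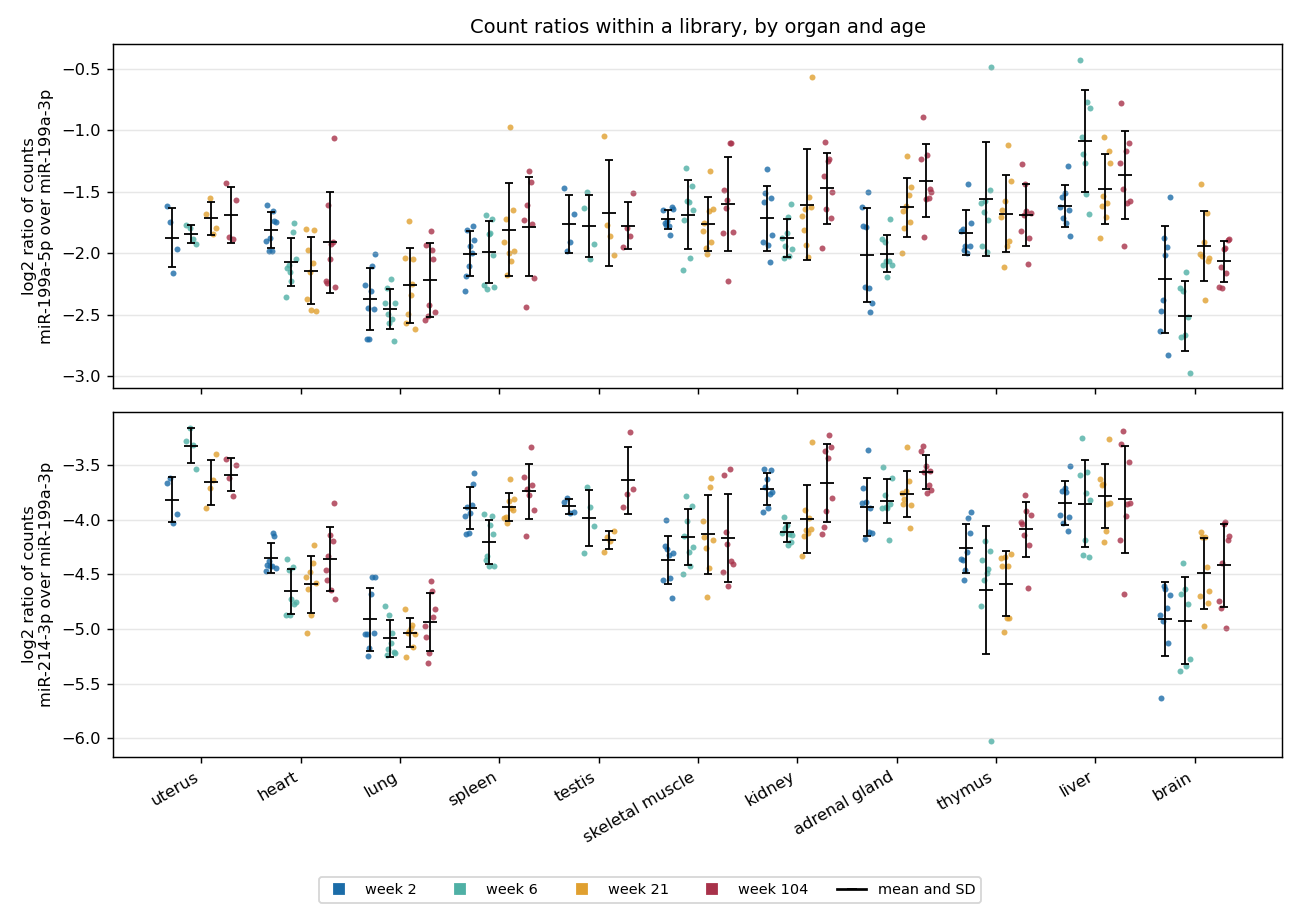
Log2 ratio of counts of miR-199a-5p over miR-199a-3p (top) and of miR-214-3p over miR-199a-3p (bottom) in each library kept, by organ and age, with bars for mean and SD. Every point lies under 0, and lung has the lowest mean in both panels, at -2.33 and -4.99 over its 32 libraries.

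Averaged over ages, no difference between the sexes was called. In the 9 organs taken from both sexes, 0 of 27 tests of female against male rats over all ages were called by edgeR, with 2 at an unadjusted p under 0.05 and 0 called by DESeq2, while 1.39% of the tests of all miRNAs were called. The log2 differences, female minus male, ran from -0.20 to 0.19. Their 95% normal intervals stayed between -0.43 and 0.35, so that larger differences fall outside them. The difference of the sexes in the change from week 2 to week 21 was called in 0 of 27 tests by edgeR, with 5 at an unadjusted p under 0.05, against 0.667% for all miRNAs. DESeq2 called 2, both in lung. For miR-214-3p the 4 male lung libraries of week 2 were at 195 to 318.2 CPM against 148 to 186 CPM in the females, without overlap, whereas at week 21 the males were at 53.0 to 80.2 CPM and the females at 70.5 to 95.5 CPM. The log2 change of the males minus that of the females was -0.79 ± 0.19 (SE) in edgeR (adjusted p = 0.0669) and by -0.82 ± 0.18 in DESeq2 (adjusted p = 0.00049). For miR-199a-5p in lung the values were -0.78 (edgeR, adjusted p = 0.117) and -0.81 (DESeq2, adjusted p = 0.0493). The difference furthest from 0 was that of miR-214-3p in thymus, at -0.89 ± 0.38 (SE), which was not called (adjusted p = 1). There the 4 males of week 2 were at 37.1 to 79.0 CPM and the 4 females at 22.8 to 26.0 CPM, whereas at week 104 the males were at 62.2 to 111.5 CPM and the females at 138.5 to 158.8 CPM. The sexes did not overlap at weeks 2 and 104 and stood in opposite order. Week 104 is outside the tested change, which ran from week 2 to week 21, so these values do not bear on that test. The sex difference at a single age was not tested. How often other miRNAs separate in this way was not counted.

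In the TMM fit of week 2 against week 21, the lists of smooth muscle miRNAs, of miR-21 with miR-29, and of cartilage miRNAs held more rises than falls. Most lists of other cell types did so too. From week 2 to week 21, the smooth muscle miRNAs miR-143 and miR-145 (4 arms, 44 tests) were called lower in 3 and higher in 26, with a median log2 change of 0.58. miR-143-3p, the most abundant of them, rose by 1.09 in skeletal muscle and 0.86 in testis, where miR-199a-3p fell. The list of miR-21-5p, a miRNA of injured and growing tissue, and the 3 miR-29 miRNAs, which target collagen messages, was called higher in 41 of 44 tests and lower in 0, with a median of 2.83. miR-29a-3p, miR-29b-3p and miR-29c-3p each rose in 11 of 11 organs, and miR-29a-3p changed by 1.79 in thymus and by 4.17 in skeletal muscle. The cartilage miRNAs miR-140-3p and miR-140-5p were called higher in 9 of 22 tests and the endothelial pair miR-126a-3p and miR-126a-5p in 11 of 22, with 0 and 1 called lower. The 10 miRNAs of the smooth muscle list, the miR-21 and miR-29 list and the cartilage list together gave 3 lower and 76 higher of 110 tests, with a median of 0.73. Of these 76 rises, 41 came from the miR-21 and miR-29 list. Which cells carry those miRNAs was not tested. All miRNAs gave 1712 lower and 1426 higher of 6776, with a median of -0.06. Rises outnumbered falls in lists of other cell types too: white blood cell miRNAs were lower in 1 and higher in 27 of 44 tests, with a median of 0.80, and the miR-200 family of epithelium in 7 and 23 of 55, with a median of 0.44. Red blood cell miRNAs were lower in 12 and higher in 13 of 44. The list counts and medians were not repeated with total-count scaling. That scaling shifted the changes over these ages by a median log2 value of -0.43 over organs, and of -0.83 in skeletal muscle. Smaller rises in the lists may thus depend on the scaling. The difference between these lists and miR-199a with miR-214 was not tested.

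**Figure D4:**
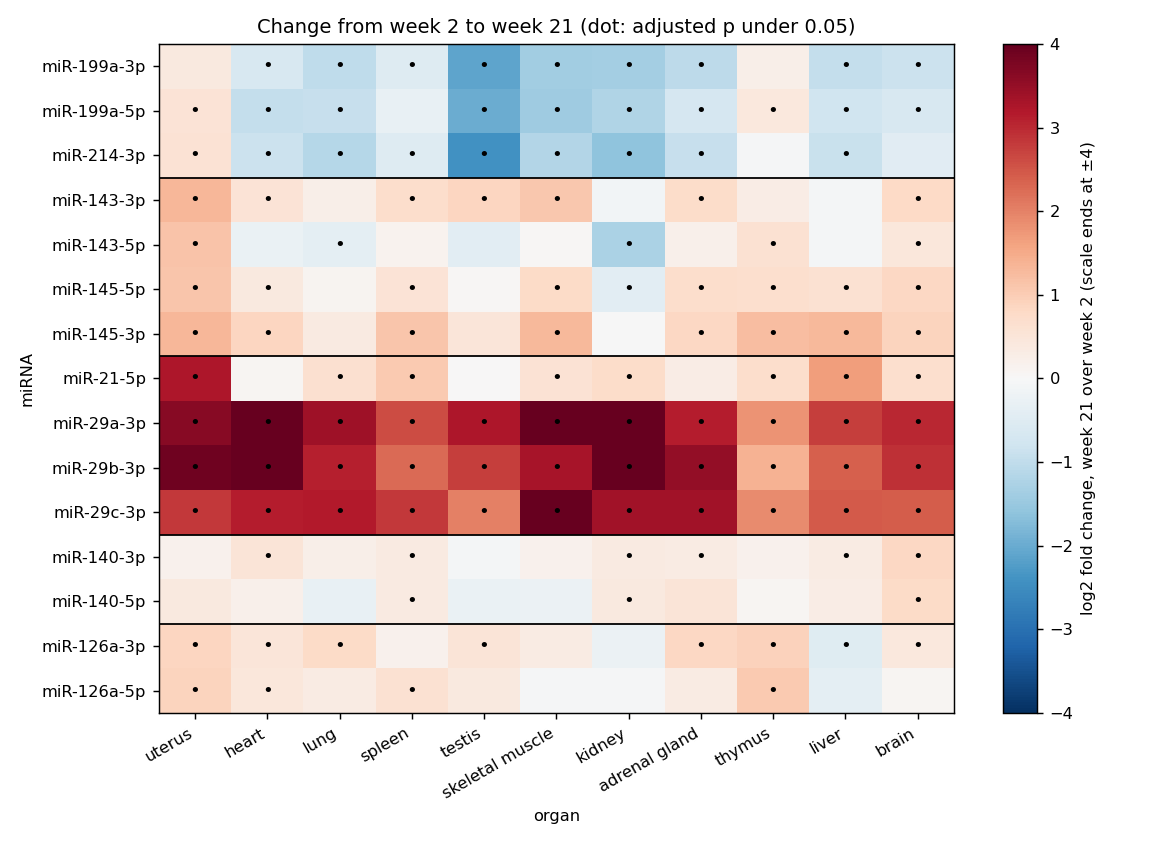
Log2 fold change in the TMM fit from week 2 to week 21 (colour, ends at ±4) of the 3 miRNAs and of 12 miRNAs of the smooth muscle, miR-21 with miR-29, cartilage and endothelium lists in 11 organs, with a dot where the adjusted p is under 0.05. The top 3 lines lie below 0 in at least 9 organs, whereas the miR-29 lines are red in all 11.

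The smooth muscle miRNAs miR-143-5p, miR-145-5p and miR-145-3p were among the 5 other miRNAs most like each of the 3 members. miR-143-3p was not. Over the 80 groups of organ, sex and age, Pearson's r of log2(CPM + 1) group means between the 3 members was 0.958 to 0.978. For miR-199a-3p the nearest others were miR-143-5p (r = 0.81), miR-145-5p (0.79), miR-152-5p (0.76), miR-224-5p (0.76) and miR-145-3p (0.74). For miR-199a-5p and miR-214-3p the list held miR-152-5p, miR-152-3p, miR-143-5p, miR-145-5p and miR-145-3p, with r from 0.68 to 0.77. The 80 groups share organs, animals and sequencing, so these values are descriptions only. The groups differ in age and sex as well as in organ, so r does not measure likeness between organs alone.

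miR-214-5p was near the limit of detection. Its mean was 1.52 counts per library, 282 libraries held 3 counts or fewer and 157 held 0, and the highest library held 17. Of the 36 libraries above 3 counts, 15 were from uterus, 7 from heart, 6 from kidney, 4 from skeletal muscle, 3 from testis and 1 from lung. Falls from week 2 to week 21 were called in adrenal gland, lung and skeletal muscle, where all values lay at 9 counts or fewer, and no fold is given for them. miR-199b, a related miRNA, and miR-3120, which lies on the opposite strand of the miR-214 hairpin, had 0 rows in the count table and were not analysed.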

How the data were processed

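Small RNA of 320 rat organ samples was sequenced, and the authors deposited whole-number counts of reads for each miRNA, which carry no normalization. Per the labels and the methods of the study, adapters were removed with fastp 0.23.2, reads were aligned with Bowtie 1.3.1, and miRNAs under a mean of 1 count per library were discarded; rn7 is the genome named. The kit has no molecular identifiers, so that spread and intervals hold counting error and amplification together. The 2 libraries that the study removed were left out and used again in an alternative. No columns of the table were identical, and the chi-square per degree of freedom of 474 replicate pairs was at least 12.7.

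Counts were scaled with TMM and fitted with edgeR 4.0.16 (quasi-likelihood) in R 4.3.3: 1 fit per organ for age and sex, 1 fit per age for pairs of organs, and 1 fit of 80 groups for the difference between organs in the change with age. P-values were adjusted by Benjamini-Hochberg over all miRNAs of a contrast and called at 0.05. Since labels do not say that a replicate number marks the same rat in each organ, it was a block only in an alternative. Ratios were log2 of counts with 0.5 added. Python 3.11.15, NumPy 2.4.6, pandas 2.3.3, SciPy 1.17.1 and matplotlib 3.10.9 were used, and the fits were tested on simulated counts.

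Alternatives were total-count scaling, DESeq2 1.42.0, a mean count of at least 10 (457 miRNAs), all 320 libraries, 2 libraries that stand apart left out, sequencing lane (8 lanes), the replicate block, and each replicate left out. For the difference between organs, a fit of weeks 2 and 21 only replaced DESeq2. Sequences came from RefSeq (GRCr8), in which 551 of the 616 names were found. The miRNAs named are the members, the marker lists, and the 5 miRNAs most like each member. The members and lists were chosen with earlier results of these data known.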

Additional observations from a re-analysis of the deposited data

Results flagged for a closer look

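Single libraries lay far from the other 3 of their group in 14 of 234 groups of 4 (5.98%), and chance alone gives about 1 in 20. For miR-199a-3p this was uterus at week 2, replicate 3, at 11855 CPM against 6364 to 6487 CPM. For miR-199a-5p the high libraries were female heart at week 2 (1928 CPM) and week 104 (985 CPM), female liver at week 21 (287 CPM), male lung at week 6 (1057 CPM), female skeletal muscle at week 21 (362 CPM), male spleen at week 21 (1251 CPM) and uterus at week 21 (2725 CPM). The low ones were female heart at week 6 (574.5 CPM) and male skeletal muscle at week 6 (546 CPM). For miR-214-3p, female brain at week 104 (10.3 CPM) and female kidney at week 104 (95.5 CPM) were high, and male thymus at week 6 (5.69 CPM, which is 5 counts) and uterus at week 104 (245 CPM) were low.

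The change from week 2 to week 21 in an organ differed from the mean of the other organs, in edgeR's quasi-likelihood test, in 18 cases. On the log2 scale these were, for miR-199a-3p, testis (-1.26), kidney (-0.46), skeletal muscle (-0.39), lung (-0.37), thymus (1.04) and uterus (1.302). For miR-199a-5p they were testis (-1.25), skeletal muscle (-0.55), heart (-0.54), kidney (-0.45), thymus (1.12) and uterus (1.34). For miR-214-3p they were testis (-1.58), kidney (-0.74), lung (-0.49), brain (0.49), thymus (0.76) and uterus (1.51).

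The libraries that the study removed held more of the following miRNAs than the others of their groups. The male week 6 brain library held 2236 CPM of miR-199a-3p, 612 CPM of miR-199a-5p (others 25.3 to 41.5) and 135 CPM of miR-214-3p (others 4.47 to 7.75). The female week 104 spleen library held 3810.5 CPM of miR-199a-3p and 1058 CPM of miR-199a-5p (others 559 to 994).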

How the results depend on the processing

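Falls from week 2 to week 21 and the higher level in uterus stayed within 1.5 times their counts in all alternatives, and the counts that moved by more were small ones. The 3 rises from week 2 to week 21 became 0 with total-count scaling, 1 with lane and 0 to 4 with a replicate left out, and the 0 rises to week 6 became 1 with a mean count of at least 10. From week 21 to week 104, the 3 falls became 5 with total-count scaling and 0 to 3 with a replicate left out, and the 5 rises became 9 with total-count scaling, 11 with DESeq2 and 3 to 6 with a replicate left out. The 11 lower differences between organs became 6 with all 320 libraries and 7 to 10 with a replicate left out, and DESeq2 called 2 sex by age differences in place of 0. Directions turned for values near 0 or where scaling differs. From week 2 to week 6 in brain, all 320 libraries gave 0.63 for miR-199a-3p and 0.56 for miR-199a-5p. From week 2 to week 21, miR-214-3p in thymus gave 0.015 with a mean count of at least 10 and -0.26 to 0.23 with a replicate left out, and miR-199a-3p in uterus gave -0.093 with total-count scaling. From week 21 to week 104 in testis, miR-199a-3p gave 0.033 with DESeq2, 0.049 with lane and -0.23 to 0.27 with a replicate left out, miR-199a-5p gave 0.081 with lane, and miR-214-3p gave -0.77 with total-count scaling. In uterus the 3 values turned to -0.28, -0.29 and -0.24 with total-count scaling, and those of miR-199a-3p and miR-214-3p reached -0.044 to 0.32 and -0.014 to 0.25 with a replicate left out. The cause was not tested. Same-numbered libraries shared little deviation: their deviations correlated at 0.010 on average between organs and at 0.006 between ages or sexes. Libraries of different number correlated at -0.003 between organs. Correlations this small cannot tell whether a number marks the same rat in each organ. With the replicate block the 3 rises from week 2 to week 21 became 1, as miR-199a-5p in thymus (0.40, adjusted p = 0.0577) and miR-214-3p in uterus (0.58, adjusted p = 0.0660) were lost, and miR-214-3p in heart from week 21 to week 104 (0.43, adjusted p = 0.0575) was lost too; no other call reported here changed. Depth limits miR-214-5p, at 3 counts or fewer in 282 libraries, and miR-214-3p in brain and thymus, where the lowest libraries held 7 and 5 counts.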
